A study of Mus musculus with 2 samples.

Results

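WNT signals reach a cell through 19 secreted ligands, 10 Frizzled receptors, a small set of co-receptors and 2 genes needed to secrete the ligands, Porcn and Wls. The expression of these 36 genes was followed in ureters exposed to an activator of the pathway. The genes were chosen by name from the probe annotation and not by their values, though earlier results of these data were known. They make up 36 of the 29875 genes named on the array and are covered by 45 of its 39429 probes. Ureters of wildtype NMRI mouse embryos were explanted at E12.5 and kept for 18 h in serum-free medium with 10 µM BIO, an inhibitor of the kinase GSK3 that turns on canonical WNT signaling, or with the solvent DMSO alone (2:1000). Each of 2 arrays carried RNA of a pool of control ureters in one color and RNA of a pool of BIO-treated ureters in the other. Red was the color of the BIO RNA in replicate 1 and green in replicate 2. The sex of the embryos was not determined, and since each pool held whole ureters, fewer cells of a type and less RNA per cell cannot be told apart.

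WNT ligands are lipid-modified by the acyltransferase Porcn in the endoplasmic reticulum and carried to the cell surface by Wls. In the canonical pathway a ligand brings together a Frizzled and Lrp5 or Lrp6, the complex that contains GSK3 no longer marks β-catenin for degradation, and β-catenin activates target genes with TCF/LEF factors. Ror1, Ror2 and Ryk are co-receptors best known from the β-catenin-independent branches. BIO acts inside the cell, below ligand and receptor. In the early ureter the epithelium is known as a source of Wnt7b and Wnt9b and the surrounding mesenchyme as the tissue that responds.

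The explants expressed markers of both ureteric tissues. All 8 epithelial and all 8 mesenchymal marker genes were tested, meaning that on both arrays their probe exceeded background clearly for the control RNA, or did so for the BIO RNA. Clearly above background was the call of the scanner software for more than a share of 0.5 of a probe's spots. Of the biological spots, between 70.0% and 80.9% met it per channel. Of 36 WNT ligand and receptor genes, 31 were tested. The remaining 5 were the ligand genes Wnt2, Wnt2b, Wnt3, Wnt3a and Wnt8a. Their processed signals, which are the background-subtracted and dye-normalized intensities of the scanner software, lay between 1.07 and 16.5 in every channel. Wnt2 was above background in control of replicate 1 and with BIO in replicate 2, and Wnt3 in control of replicate 1.

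BIO changed 12 of the 31 tested genes, and the changes were split evenly between rises and falls. Wnt6, Wnt4, Wnt10a, Wnt10b, Fzd10 and Fzd3 rose, while Fzd4, Fzd6, Fzd8, Wnt7b, Wnt9a and Wnt11 fell (limma, adjusted p below 0.05 over all genes, n = 2 arrays). The 6 rises compare with 9.27% of all 21574 genes tested that rose, and the 6 falls with 14.9% that fell. The median log2 ratio of the 31 genes was -0.0046, against -0.0083 for all genes tested. Both arrays gave the same sign for 19 of the 31 genes and for 15719 of the 21574. With the score table that the authors deposited, rounded to 1 decimal, 5 of these genes rose and 1 fell, and over all genes tested 1929 rose and 1319 fell, in place of 2000 and 3223. Under a rule without a test, 4 genes (Wnt6, Wnt4, Wnt10a and Fzd10) were at least 2-fold higher and 1 gene (Fzd4) at least 2-fold lower on both arrays at a processed signal of at least 100. Over all genes 1.04% were higher and 2.04% lower by this rule.

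**Figure D1:**
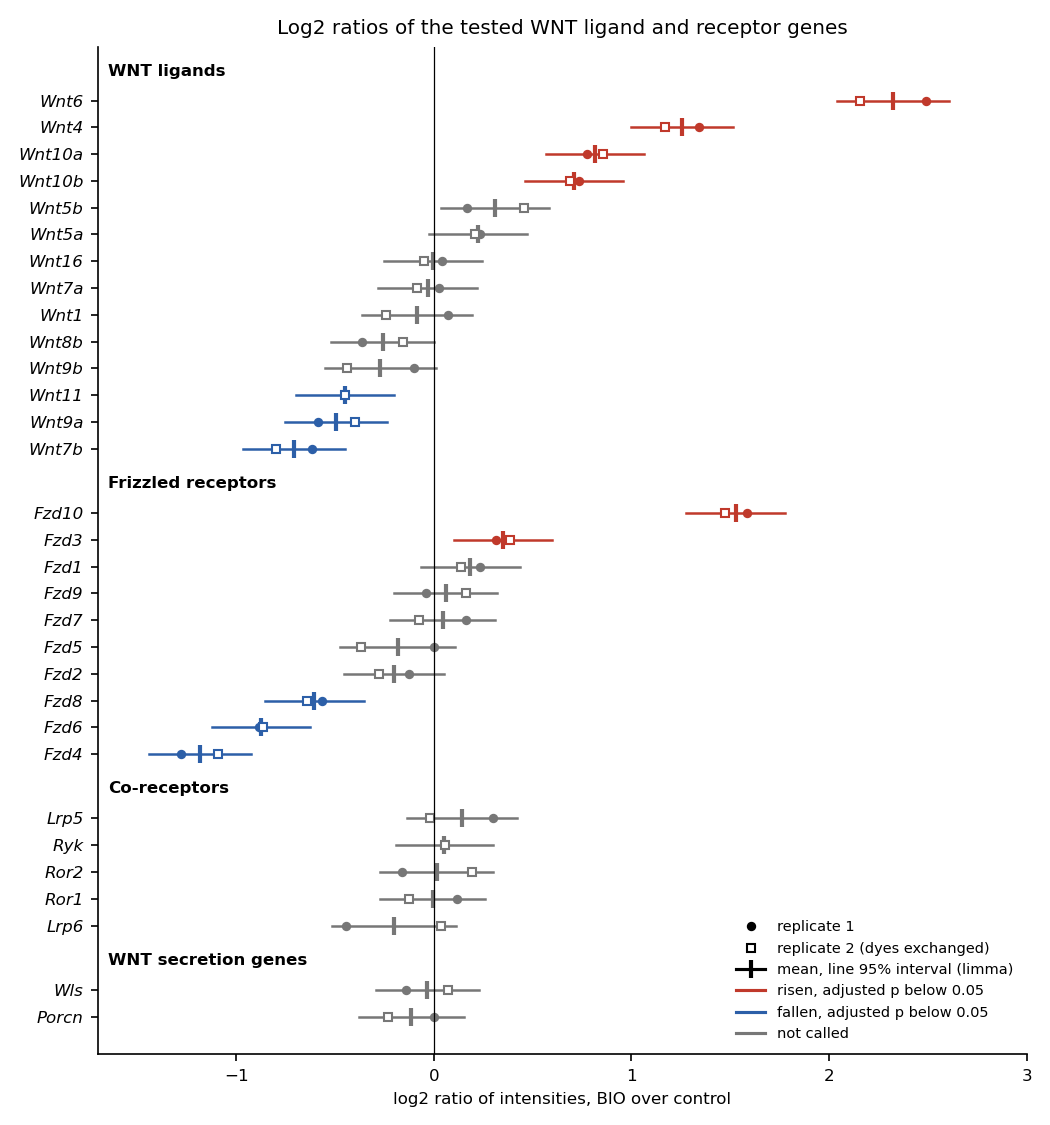
Log2 ratio of intensities, BIO over control, of the 31 tested genes, grouped by role. Filled circles are replicate 1, open squares replicate 2 with the dyes exchanged, ticks the mean of both and lines its 95% interval from limma. Wnt6 at 2.32 and Fzd4 at -1.18 mark the ends, and all 5 co-receptors and both secretion genes lie across 0.

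The sequence before the transcription start is shown for those of the 5 genes past both the test and the 2-fold rule that have an entry in the RefSeq promoter table used here (GRCm38.p6), since they were called in both ways. Each run is the 250 bases before the start, 5′ to 3′ on the gene's strand. Capitals mark CTTTG, the core of TCF/LEF binding motifs, on either strand.

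Wnt6: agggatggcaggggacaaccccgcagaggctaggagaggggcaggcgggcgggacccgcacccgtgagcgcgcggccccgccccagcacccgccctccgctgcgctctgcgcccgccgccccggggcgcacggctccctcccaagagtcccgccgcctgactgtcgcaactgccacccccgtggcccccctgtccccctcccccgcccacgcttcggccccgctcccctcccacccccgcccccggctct

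Wnt4: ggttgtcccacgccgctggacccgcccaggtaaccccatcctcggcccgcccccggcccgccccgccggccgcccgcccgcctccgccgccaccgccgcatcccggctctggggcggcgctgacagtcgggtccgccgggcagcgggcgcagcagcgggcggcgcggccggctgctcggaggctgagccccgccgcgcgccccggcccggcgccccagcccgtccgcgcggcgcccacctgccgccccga

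Fzd10: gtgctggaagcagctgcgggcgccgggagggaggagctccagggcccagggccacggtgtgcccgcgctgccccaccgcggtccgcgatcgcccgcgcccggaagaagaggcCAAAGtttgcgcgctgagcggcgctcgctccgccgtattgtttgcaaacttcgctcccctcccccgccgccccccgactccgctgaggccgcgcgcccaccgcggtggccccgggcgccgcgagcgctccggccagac

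Fzd4: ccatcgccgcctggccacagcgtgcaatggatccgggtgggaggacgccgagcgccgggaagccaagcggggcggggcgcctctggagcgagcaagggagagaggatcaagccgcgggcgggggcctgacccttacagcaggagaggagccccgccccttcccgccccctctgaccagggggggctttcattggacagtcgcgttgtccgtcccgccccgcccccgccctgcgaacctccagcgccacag

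The windows are chr1:74771642-74771891 for Wnt6, chr4:137277385-137277634 for Wnt4, chr5:128600856-128601105 for Fzd10 and chr7:89404116-89404365 for Fzd4, all on the plus strand. Fzd10 holds the core once, on the opposite strand, with its first base at -138 from the start, and the other windows printed hold none. The core occurs in 48.6% of all 32851 such windows. It was found in 13 of the 28 windows of the ligand and receptor genes listed, and in 2 of the 8 windows of called genes. The longer CTTTGAT, which contains the core, was found in 3.21% of all windows and in 2 of the 28 windows of the 25 ligand and receptor genes listed, 1 of Wnt11 and 1 of Wnt5b. CTTTGAA was found in 4.46% of all windows and in 0 of these 28. The windows shown are rich in G and C, from 72.8% in Fzd4 to 85.2% in Wnt4, with a median of 71.2% over the 28 windows and 52.4% over all. A match of letters is a description and not a binding site.

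Among the ligands, 14 of 19 were tested, of which 4 rose and 3 fell, against 9.27% and 14.9% over all genes tested. Wnt6, which encodes a ligand found in many embryonic epithelia, had the highest ratio of the 31 genes. In replicate 1 its processed signal went from 486 in control to 2857 with BIO, and in replicate 2 from 381 to 1889.7. The BIO channel was the brighter one on both arrays, and the signals of the groups did not overlap. The log2 ratios, computed from background-corrected and loess-normalized intensities, were 2.49 and 2.16, with a mean of 2.32 ± 0.12 (SE, n = 2), or 5.01-fold (limma, adjusted p = 2.93e-05). Here and below the SE is the moderated one of limma. It draws mostly on the spread pooled over all tested probes and is not the spread between the 2 arrays of a gene. By its mean it ranked 10 among the 21574 genes tested, counted from the highest. The probe lies on chromosome 1 at 74831461 to 74831520 (mm9), the build of the probe coordinates.

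Wnt4, the ligand that drives the mesenchymal-epithelial transition of nephron precursors in the kidney, rose to a smaller extent. Its processed signal went from 2651 to 6857 in replicate 1 and from 2670 to 6272 in replicate 2. The log2 ratios of 1.34 and 1.17 gave a mean of 1.26 ± 0.11 (SE, n = 2; limma, adjusted p = 0.000196). A second probe of Wnt4, further toward the 5′ end of the transcript, rose by 1.15 ± 0.12 (SE; limma, adjusted p over probes 0.000388), with signals from 817 to 2074 and from 743 to 1533. The probes lie on chromosome 4 at 136855342 to 136855401 and within 136851690 to 136852258, the latter spanning an intron in the coordinates of the file (mm9).

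Wnt10a and Wnt10b encode closely related ligands of the canonical pathway, known from teeth and hair and from mammary gland and bone. Wnt10a went from a processed signal of 105 to 211 in replicate 1 and from 96.3 to 204 in replicate 2. Its log2 ratios were 0.77 and 0.86, with a mean of 0.82 ± 0.11 (SE, n = 2; limma, adjusted p = 0.00124). With the processed signals, on which the 2-fold rule rests, its mean log2 ratio was 1.01. Wnt10b was dim, with 18.0 and 47.7 in replicate 1 and 14.3 and 40.2 in replicate 2, and its mean log2 ratio was 0.71 ± 0.11 (limma, adjusted p = 0.00244). On the scale of the processed signals the ratio of Wnt10b was 1.41, and with an offset of 16 in place of 50 added to the intensities it was 0.94. Both genes were higher with BIO on each array.

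The ligands that fell were Wnt7b, Wnt9a and Wnt11. Wnt7b, an epithelial signal to the ureteric mesenchyme, went from a processed signal of 586 to 395 in replicate 1 and from 699 to 399 in replicate 2. Its log2 ratios were -0.62 and -0.80, with a mean of -0.71 ± 0.11 (SE, n = 2; limma, adjusted p = 0.00300). Wnt9b, its epithelial partner in this tissue, had ratios of -0.10 and -0.44 and was not called (mean -0.27, limma, adjusted p = 0.152). The difference between both genes was not tested. Wnt9a, known for its part in joint formation, had signals of 187 and 119 in replicate 1 and 203 and 159.8 in replicate 2, with a mean log2 ratio of -0.49 ± 0.11 (limma, adjusted p = 0.0150). Wnt11, a ligand of the β-catenin-independent branch made by ureteric bud tips, went from 564 to 435 and from 603 to 448, with nearly the same log2 ratio of -0.45 on each array (SE 0.11; limma, adjusted p = 0.0185). The calls of Wnt9a and Wnt11 were lost with the processed signals (limma, adjusted p = 0.0526 and 0.0654) and with the score table (limma, adjusted p = 0.279 and 0.126). Median centering in place of loess ended that of Wnt11 as well (limma, adjusted p = 0.0531). With the prior degrees of freedom set to 3.57 in place of 7.14, an alternative chosen after seeing the data, they were lost too (limma, adjusted p = 0.0566 and 0.0573).

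The other 7 ligand genes tested were not called, with mean log2 ratios from -0.27 for Wnt9b to 0.31 for Wnt5b. Wnt5a and Wnt5b, the ligands typical of planar polarity and other β-catenin-independent signaling, were both above 0 on both arrays, Wnt5a with 0.23 and 0.21 and Wnt5b with 0.17 and 0.46 (limma, adjusted p = 0.179 and 0.0962). Wnt8b had -0.36 and -0.16 at dim signals of 19.7 to 41.0, and was not well above background with BIO in replicate 1. Its mean was -0.26, and -0.48 with the processed signals. Wnt1, Wnt7a and Wnt16 had opposite signs on the 2 arrays, with means of -0.09, -0.03 and -0.0044. Wnt7a, with signals of 13.7 to 18.1, and the brighter probe of Wnt16, with 20.1 to 27.6, were dim too. The 2 probes of Wnt16 differed. Its dimmer probe was well above background in control on both arrays, with 25.0 and 17.9, and not well above background with BIO, with 4.46 and 5.27, and was at least 1.37-fold lower there. It entered the test only through the control channels, so that no p is given for it. Which transcripts of Wnt16 each probe detects was not tested.

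**Figure D2:**
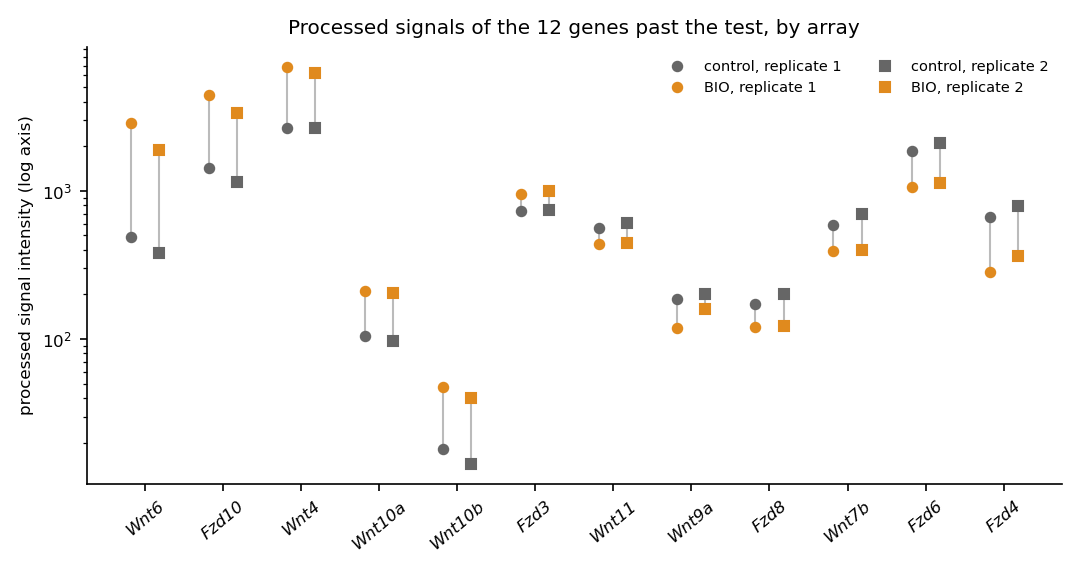
Processed signal intensity (log axis) of the 12 genes past the test, ordered by their mean log2 ratio, with circles for replicate 1 and squares for replicate 2, gray for control and orange for BIO, and a line joining both channels of an array. The orange points lie above the gray ones for the 6 genes from Wnt6 to Fzd3 and below them for the 6 from Wnt11 to Fzd4, and Wnt10b is the dimmest with 14.3 to 47.7.

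All 10 Frizzled genes were expressed above background, and 2 rose and 3 fell. The shares over all genes tested were 9.27% risen and 14.9% fallen. Fzd10 went from 1419 to 4413 in replicate 1 and from 1146 to 3350 in replicate 2. Its log2 ratios were 1.58 and 1.47, with a mean of 1.53 ± 0.11 (SE, n = 2), or 2.88-fold (limma, adjusted p = 8.61e-05). The signals with BIO lay well apart from those of control on both arrays, and its mean ranked 35 from the highest among all genes tested. Fzd3, a receptor of planar polarity and axon guidance, had signals of 726 and 958 in replicate 1 and 748 and 994 in replicate 2. Its mean log2 ratio of 0.35 ± 0.11 (SE, n = 2) passed the test narrowly (limma, adjusted p = 0.0498), and the call was lost in 6 of 9 alternatives. The probe of Fzd10 lies on chromosome 5 at 129109798 to 129109857 (mm9).

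Fzd4, the receptor of Norrin in blood vessels, fell most among the 31 genes. In replicate 1 its processed signal went from 670 in control to 284 with BIO, and in replicate 2 from 791 to 362. Log2 ratios were -1.28 and -1.09, with a mean of -1.18 ± 0.11 (SE, n = 2), or 2.27-fold lower (limma, adjusted p = 0.000260). All 8 endothelial markers fell in the same samples, with a median log2 ratio of -1.83 and a range from -2.63 for Kdr to -1.22 for Tie1, and none of them was near 0 in signal. Their summed processed signal went from 26192 to 5031 in replicate 1 and from 31559 to 9348 in replicate 2. Their part in the fall of Fzd4 was not tested. The probe of Fzd4 lies on chromosome 7 at 96557478 to 96557537 (mm9).

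Fzd6, known for the orientation of hair follicles, and Fzd8 fell as well. For Fzd6, signals of 1853.5 and 1057 in replicate 1 and 2101 and 1126 in replicate 2 gave log2 ratios of -0.88 and -0.86, with a mean of -0.87 ± 0.11 (SE, n = 2; limma, adjusted p = 0.000864). For Fzd8, signals of 173 and 121 and of 200.5 and 122 gave -0.57 and -0.64, with a mean of -0.60 ± 0.11 (SE, n = 2; limma, adjusted p = 0.00526). Control was the brighter channel on both arrays for both genes. The other 5 Frizzled genes, Fzd1, Fzd2, Fzd5, Fzd7 and Fzd9, were not called, with means from -0.20 for Fzd2 to 0.18 for Fzd1. Among these, Fzd1 had signals from 37474 to 49513 over both arrays, with log2 ratios of 0.23 and 0.14 (95% interval of the mean from -0.07 to 0.44). The further probes of Fzd2, Fzd5 and Fzd7 were not called either, with means of 0.08, -0.13 and 0.12. Fzd5 was dim, with processed signals of 32.8 to 47.6 at its brighter probe and 15.7 to 26.6 at the other.

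None of the 5 co-receptors and neither secretion gene was called, also at an unadjusted p below 0.05 (0 of 7; limma). Over all 21574 genes tested 24.2% were called, and 7919 had an unadjusted p below 0.05 (limma). The means of the co-receptors ranged from -0.20 for Lrp6 to 0.14 for Lrp5, the receptors shared by canonical signals, with Ror1 at -0.0046, Ror2 at 0.01 and Ryk at 0.05. Ryk alone of the 5 had the same sign on both arrays. Lrp6 differed most between the arrays, with -0.44 and 0.04, and its second probe had a mean of -0.15. The 95% interval of the mean was -0.52 to 0.11 for Lrp6 and -0.14 to 0.42 for Lrp5, so that changes of this size cannot be told from 0 with 2 arrays. Porcn and Wls had means of -0.11 and -0.03, with intervals from -0.38 to 0.15 and from -0.30 to 0.23. Wls was bright, with processed signals between 13916 and 15728.

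The genes around ligands and receptors were followed in 6 lists. Of 12 canonical targets, 9 rose and 2 fell, with a median log2 ratio of 1.08. Sp5 rose by 2.80, the feedback inhibitor Axin2 by 2.15, Lgr5, a receptor for R-spondins, by 2.09 and the TCF/LEF factor gene Tcf7 by 1.38, while Dkk1 fell by 0.53 and Myc fell by 0.95. Of 11 tested genes of secreted inhibitors and the membrane-bound Kremen receptors, 2 rose and 3 fell, with a median of 0.02. Sfrp2 and Sfrp1, which bind ligands outside the cell, fell by 1.40 and by 1.10, whereas Kremen2, a receptor for Dkk proteins, rose by 1.17 at low signals of 49.4 to 196 and Wif1 rose by 0.76. Dkk1 is in both lists.

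Of the 6 cofactors of Norrin, WNT7 and FZD4, the tetraspanin gene Tspan12, whose product joins Fzd4 in Norrin signaling, rose by 0.68 and the ligand gene Ndp (Norrin) fell by 0.51. Processed signals of Tspan12 went from 5819 to 9738 and from 6249 to 9914, opposite in direction to those of Fzd4. Reck and Adgra2, needed for WNT7 signals in brain vessels, were not called at -0.22 and -0.28, and the median of the list was -0.0035. Of 14 tested planar polarity partners, 0 rose and 1 fell (limma; 2 at an unadjusted p below 0.05), with a median of -0.03. That gene was Prickle3 (-0.63). Of 13 noncanonical effectors 0 rose and 4 fell, namely Nfatc1 (-0.73), Rac1 (-0.55), Plcb1 (-0.47) and Camk2d (-0.39), with a median of -0.26. Of 10 genes of WNT transport and the retromer, which recycles Wls, 0 rose and 1 fell, namely Sar1b (-0.45), with a median of -0.22. Except where given as unadjusted, list counts are by limma with adjusted p below 0.05 over all genes, of which 24.2% were called. Of all 21574 genes tested, 7919 had an unadjusted p below 0.05 (limma).

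Other cell type markers moved with the treatment. Of 8 ureteric mesenchyme markers 6 fell, with a median of -0.59, and their summed processed signal went from 264260 to 168390 and from 289520 to 183240. Pdgfrb fell most among them (-2.17), while Tbx18 (-0.22) and Tcf21 (-0.32) were not called. Of 8 ureteric epithelium markers 4 fell, with a median of -0.52, among them Cdh1 (-1.04) and Krt19 (-1.24), while Epcam was at 0.02 and Gata3 at -0.10. Their sum went from 85573 to 50113 and from 87193 to 60070.

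Of 8 markers of kidney mesenchyme and nephron 1 rose and 3 fell, with a median of -0.18 and sums from 29872 to 26494 and from 31527 to 27857. The rise was that of Wt1 by 0.58, with 0.18 in replicate 1 and 0.98 in replicate 2 (limma, adjusted p = 0.0457). Six2, the marker of nephron progenitors, had a mean of -0.06 from opposite ratios of -0.44 and 0.32. Of 6 nerve and Schwann cell markers 4 fell (median -0.51), with sums from 34278 to 24910 and from 37868 to 34423. All 4 tested macrophage markers fell (median -0.72), with sums from 3452 to 1725 and from 3882 to 2517. The part of these shifts in the falls of Wnt7b, Wnt9a, Wnt11, Fzd6 and Fzd8 or in the rises of Wnt4 and Wnt6 was not tested.

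**Figure D3:**
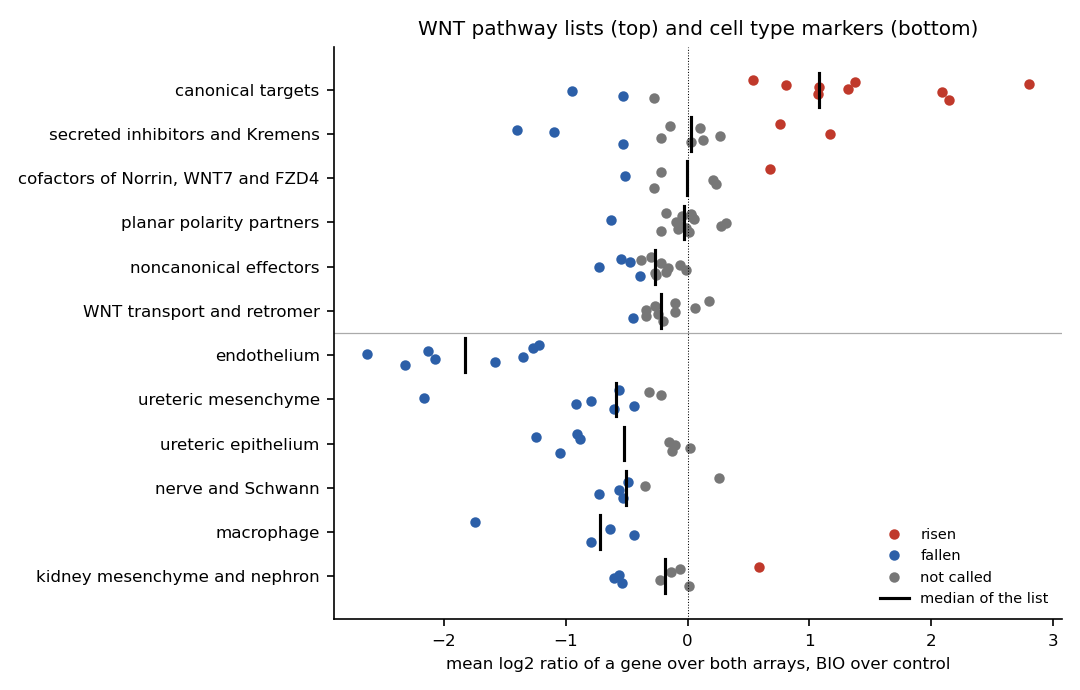
Mean log2 ratio, BIO over control, of every tested gene of the 6 WNT pathway lists (top) and 6 cell type marker lists (bottom), with red for risen, blue for fallen, gray for not called and a bar for the median of the list. The canonical targets center at 1.08 and the endothelial markers at -1.83. The planar polarity partners center at -0.03 and range from -0.63 to 0.32.

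The alternatives in processing left the signs of the 12 called genes as they were. Fzd10, Wnt4, Wnt10a and Fzd6 passed the test in all 9 alternatives, and Wnt6, Fzd4, Fzd8, Wnt7b and Wnt10b in 8, with the score table as the exception. For Wnt6 the mean log2 ratio ranged from 2.22 to 2.41 and for Fzd4 from -1.31 to -1.18.

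**Figure D4:**
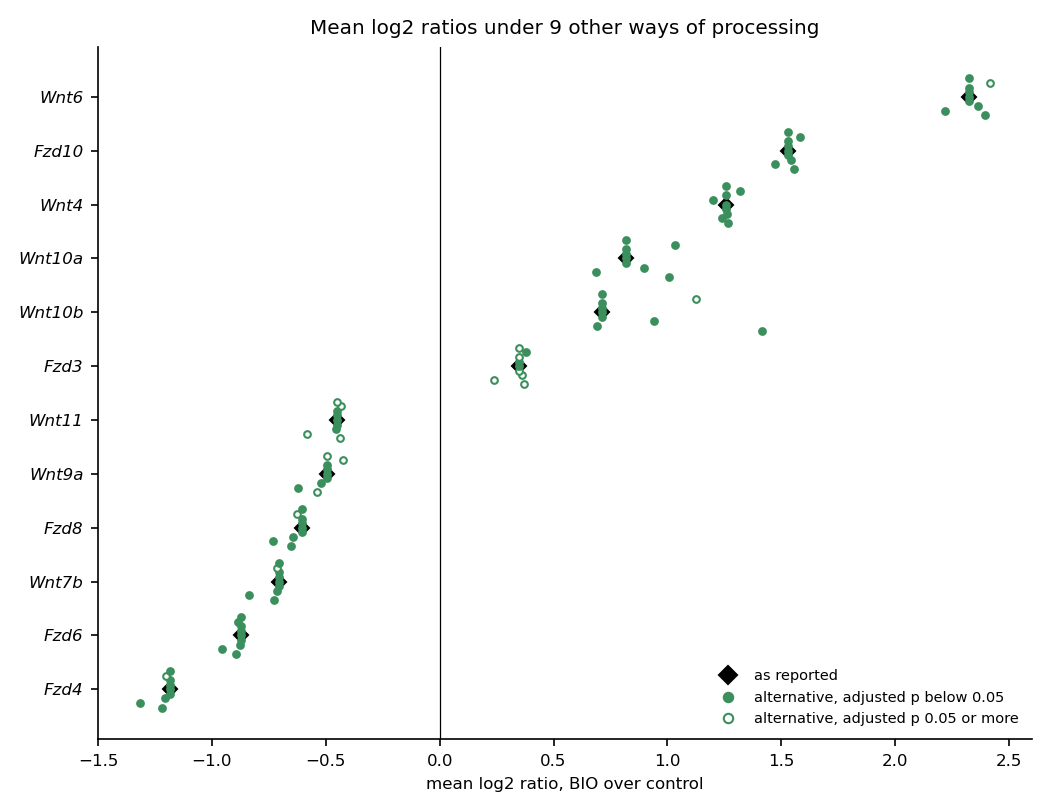
Mean log2 ratio, BIO over control, of the 12 called genes as reported (diamonds) and under 9 other ways of processing (circles, set apart vertically), filled where the adjusted p was below 0.05. Every circle lies on the same side of 0 as its diamond, and the open circles gather at Fzd3, Wnt11 and Wnt9a.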

How the data were processed

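Per the file headers and the labels, the authors scanned 2-color Agilent arrays and quantified them with Agilent Feature Extraction 10.7.3.1. The deposited intensities are mean spot signals with their local background, left uncorrected, and processed signals, which the software had background-subtracted and dye-normalized. The authors also deposited a table of scores with 1 decimal. Set against the scanner values, a score behaves as a fold change with a sign, positive where BIO is brighter, and its centering is not given in the sources used here.

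Mean intensities were background-corrected by normexp with an offset of 50 and loess-normalized within each array with limma 3.58.1 in R 4.3.3. Control and outlier spots (3.49% and 3.16%) had weight 0 and were left out, and 0 spots were saturated. The 4 spots of a probe were averaged. Ratios of the array with exchanged dyes changed sign, so that all are BIO over control, and those of 28824 probes were compared with 0 by lmFit and eBayes in two-sided tests (prior of 7.14 degrees of freedom). Each gene was represented by its brightest probe, with Benjamini-Hochberg adjustment over 21574 genes at 0.05. Each array holds separate pools of ureters and was taken as 1 replicate. The number of arrays limits the precision, with a median SE of 0.111. On data simulated after the fit, with its estimated spread and with known changes, the share of false calls ran above the nominal one. For the rule without a test, processed signals were averaged over spots, given a floor of 15 and median-centered per array. A minimum of 2-fold on both arrays and of 100 in the brighter channel was then applied.

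Probe coordinates are in mm9, for which no annotation was used, so exon or UTR positions are not given. Gene names and promoter windows come from RefSeq (GRCm38.p6). Promoters were searched in Python 3.11.15. Every gene of the family was named, with full values where it was called. Of each list at most 4 called genes of largest ratio were named, with others added after their values were seen. The genes and lists were chosen with earlier results of these data known. Alternatives were the processed signals, median centering, an offset of 16, no filter or a stricter filter on dim probes, the mean of a gene's probes, a variance trend, the score table and lower prior degrees of freedom (3.57, chosen after seeing the data).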

Additional observations from a re-analysis of the deposited data

How the results depend on the processing

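The number of risen genes of the family, 6, was 5 or 6 in all 9 alternatives, and the number of fallen genes, 6, was 4 to 6 apart from 1 with the score table. Over all genes, 2000 rose and 3223 fell. With median centering these were 856 and 1967, and with 3.57 prior degrees of freedom 985 and 1816, while the score table gave 1319 falls. Lowering the 2-fold rule to 1.5-fold gave 2 lower genes of the family instead of 1. Among the lists, median centering gave 1 fall each for the canonical targets and the noncanonical effectors and 0 for transport and retromer, and the processed signals gave 2 falls of noncanonical effectors and 0 of transport and retromer. The cause was not tested.

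Signs turned only for genes that were not called. With median centering Fzd9 was at -0.067, Porcn at 0.052, Ror2 at -0.029, Wls at 0.095, Wnt16 at 0.0049 and Wnt7a at 0.021. With the processed signals Ror1 was at 0.0076, Ror2 at -0.0055 and Wls at 0.00088, and with the score table Wls was at 0.069 and Wnt16 at 0.063. Fzd3 kept its call in 3, Wnt11 in 5 and Wnt9a in 6 of 9 alternatives, and Fzd1 gained one with the score table (0.14; limma, adjusted p = 0.0477). On single arrays, values with no test, the median of the family was 0.03 without replicate 2 and -0.05 without replicate 1, and the 2-fold rule gave 4 higher genes and 1 lower gene on each. Beyond the reported test, no paired analysis was possible because a block has nothing to add. Each ratio is already the difference within the pair of an array, so that the reported test is the paired one. The ratio of the dim probe of Wnt10b was 0.69 with median centering, 0.94 with an offset of 16 and 1.41 with the processed signals.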
